A study of Mus musculus with 4 samples.

Results

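The 10 genes described here encode killer cell lectin-like receptors, the C-type lectins by which natural killer (NK) cells and their relatives read the surface of other cells. They are the Ly49 receptors Klra4, Klra5, Klra7, Klra8 and Klra9, the NKG2 receptor chain Klrc1 with its partner Klrd1 (CD94), the related chain Klre1, and the NKR-P1 receptors Klrb1a and Klrb1c (NK1.1). They were taken as a fixed list of 10 gene symbols, all found among the 32285 genes of the deposited matrices, and described by marker-gated class of liver leukocyte and by liver zone. Single-cell RNA sequencing had been done on CD45+ cells from healthy livers of PA-GFP C57BL/6 mice, which carry a green fluorescent protein that light switches on, and every library, of either zone, came from photoactivated tissue. Cells came from the zone of the portal vein (PV, 2 libraries) or of the central vein (CV, 2 libraries). The labels name no age and do not say whether the libraries came from separate mice, so each p-value below measures the spread between libraries, which may be technical.

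The 4 libraries held 588 to 755 barcodes and 2741760 to 4373488 unique molecular identifiers (UMIs, each standing for 1 captured transcript). Libraries shared 282 of the 1939 different barcodes, and a shared barcode was kept only in the library holding at least 70% of its UMIs. The cells kept numbered 333 (PV replicate 1), 512 (PV replicate 2), 372 (CV replicate 1) and 376 (CV replicate 2). Values of the 4 libraries are given below in this order, as PV1, PV2, CV1 and CV2. Classes were gated on marker UMIs that include none of the 10 genes: 51 cells in an NK/ILC1 gate, 791 in a T cell gate, 162 B cells and 490 myeloid cells. ILC1, type 1 innate lymphoid cells, are liver-resident relatives of NK cells, and the NK/ILC1 gate was divided by marker genes into 16 NK-like cells, 33 ILC1-like cells and 2 unresolved ones. Genes not used in the gates were checked: Prf1 (perforin) had a UMI in 16 of 16 NK-like and 14 of 33 ILC1-like cells, and Tnfsf10 (TRAIL), a marker of ILC1, in 0 of 16 and 18 of 33. The 6 summed T cell check markers ran at 3663 to 3963 CPM (counts scaled to the same total in every sum of cells) in the T gates of the 4 libraries and at 325 to 1583 in their NK/ILC1 gates.

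The T gate held 45 cells with at least 2 UMIs of Cd3g and Cd3d summed but none of Cd3e, Trac or Trdc. They also had Tyrobp and at least 3 UMIs of NK genes. They are called Cd3g+ cells below, though the rule did not ask for Cd3g itself, and are given apart from the other 746 T-gated cells. They were set apart after their values were seen, so they are described and not tested as a class of their own. Tests rerun with them moved to the NK/ILC1 gate or out of the T gate rest on that later choice. Those p-values are given as alternatives and are no separate evidence. Tnfsf10, which their definition did not use, had a UMI in 33 of these 45 cells against 214 of the other 746. Ncr1, the NKp46 receptor gene, had a UMI in 40 against 20, but it is 1 of the NK genes that define them, so that count is no separate evidence of what they are. Where they hold a large part of a gene's T-gate UMIs, or change a result, their values are given beside it.

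Ly49 receptors are dimers, most of which bind class I MHC molecules on other cells. Inhibitory Ly49 chains carry, at the start of their cytoplasmic tail, a tyrosine-based inhibitory motif that recruits phosphatases, while activating Ly49 chains lack it and signal through the adaptor DAP12, encoded by Tyrobp. CD94 pairs with NKG2A, encoded by Klrc1, to form an inhibitory receptor for the non-classical molecule Qa-1, and each NK cell transcribes its own assortment of Ly49 genes. Klra4 (Ly49D) and Klra8 (Ly49H, which recognises a cytomegalovirus protein) are activating. Klra5 (Ly49E), Klra7 (Ly49G) and Klra9 (Ly49I) are inhibitory.

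The division shows in the genes themselves. The first 60 coding bases of the 5 Ly49 genes are given below from GENCODE transcripts on GRCm38, with codons 6 to 11, the place of the inhibitory motif, in capitals. Positions are counted from 1 at the A of the start codon.
Klra9, inhibitory (chr6:130191242-130191301, minus strand): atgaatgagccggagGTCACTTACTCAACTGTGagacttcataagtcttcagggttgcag
Klra5, inhibitory (chr6:129911402-129911461, minus strand): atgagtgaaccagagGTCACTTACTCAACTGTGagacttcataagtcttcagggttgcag
Klra7, inhibitory (chr6:130231558-130231617, minus strand): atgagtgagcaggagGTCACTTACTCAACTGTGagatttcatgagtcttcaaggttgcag
Klra8, activating (chr6:130128101-130128160, minus strand): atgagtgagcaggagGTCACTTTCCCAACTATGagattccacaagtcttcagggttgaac
Klra4, activating (chr6:130065243-130065302, minus strand): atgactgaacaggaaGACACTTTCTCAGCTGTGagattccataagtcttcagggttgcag
The 3 inhibitory genes hold the tyrosine codon TAC at codon 8, and both activating genes hold TTC there, the substitution A23T against Klra9. Over whole coding sequences Klra8 was nevertheless 91.9% identical to the inhibitory Klra9, and only 79.1% identical to the other activating gene, Klra4.

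All 10 genes lie on chromosome 6 in the NK gene complex, between Klrb1a (128609227 to 128623533) and Klra7 (130218605 to 130233322) on GRCm38. The library chemistry reads the 3′ ends of transcripts, so the sequence there decides which of these related genes a read can be told to come from. Of the 50-base windows in the last 300 bases of the annotated transcripts, 60.9% for Klrc1 were also found in another gene (Klrc2 or Klrc3). The share was 49.0% for Klra9 (shared with Klra8, Klra3, Klra10 and pseudogenes), 27.0% for Klra7 (a pseudogene), 19.1% for Klra8, 11.6% for Klrb1c and 10.5% for Klrb1a. It was 0% for Klra4, Klra5, Klrd1 and Klre1. How reads matching several genes were counted is not given in the sources used here, so values of Klrc1, Klra9 and Klra7, and the apparent presence of Klra8 together with Klra9, are uncertain to that extent.

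**Figure D1:**
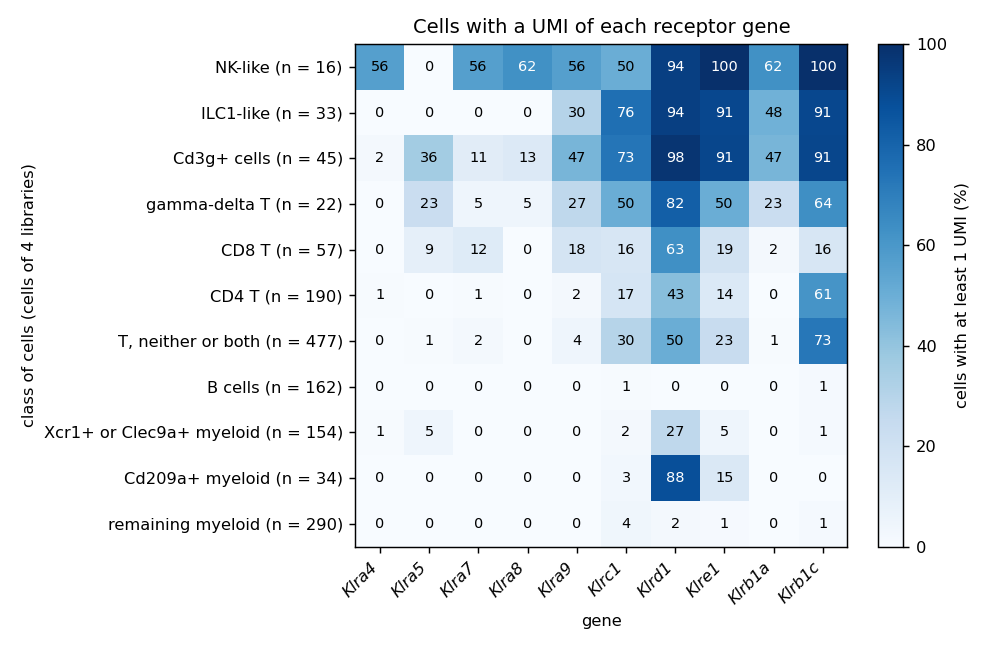
Share of cells with at least 1 UMI of each receptor gene (columns) in each class of cells (rows), in percent, over the cells of 4 libraries. Klra4, Klra7, Klra8 and Klra9 have values over 50% in NK-like cells and in no other class, though Klra9 reaches 46.7% in Cd3g+ cells. Klrd1 is in 93.8% or more of NK-like, ILC1-like and Cd3g+ cells.

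The background from free RNA was not measured. B cells, whose gate asked for few UMIs of CD3 and NK genes, are given as a guide to it. B cells, with a median of 3707 UMIs, had no UMI of any Ly49 member, of Klrd1, Klre1 or Klrb1a in 162 cells, which allows a share of up to 1.85%. Klrc1 had a UMI in 1 B cell and Klrb1c in 2. The median depth was 4301 UMIs in NK-like, 5267 in ILC1-like and 6163.5 in the other T-gated cells, against which shares of cells below can be read.

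Compared with T-gated cells of the same libraries, NK/ILC1 cells held more transcript of 9 of the 10 receptor genes and less of Klra5. All 10 passed the test (edgeR quasi-likelihood test on summed UMIs with the library as a block, Benjamini-Hochberg adjustment). The background was 5.7% of 7140 genes called in either direction, 1.72% higher and 3.98% lower. Klra5 had no UMI in NK/ILC1 cells, and Klra4 had 8 in T-gated cells. Klra8 and Klrb1a had 43 and 54 UMIs in T-gated cells, but too few T sums reached the level the filter asks for. All of these genes passed the filter on low counts only through the class in which they were high. The number of members called is therefore not read against that background. The median log2 difference was 2.35 over the members and -0.17 over all genes tested. With the other scaling (RLE) the median over all genes moved to -0.04, and no member changed direction. Sums of cells cannot tell fewer transcribing cells from less RNA per cell, so shares of cells are given beside them.

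Among the activating receptors, Klra4 stood at 418 and 777 CPM in the NK/ILC1 cells of PV replicates 1 and 2, and at 0 and 249 in those of CV replicates 1 and 2. In T-gated cells it stood at 0.725 and 4.95 in PV and at 0 in both CV libraries. It was higher in NK/ILC1 cells in 3 of 4 libraries, by 7.42 ± 0.57 (SE) on the log2 scale (adjusted p = 8.33e-36, edgeR), and by 8.53 without PV replicate 2. Klra8 read 651, 508, 14.7 and 206 CPM in the NK/ILC1 cells of PV1, PV2, CV1 and CV2. Its T gate values were 0, 0.708, 4.42 and 29.6, and the difference was 4.75 ± 0.46 (adjusted p = 4.11e-22, edgeR). It stayed past the test but moved to 3.86 without PV replicate 1, 3.85 without PV replicate 2 and 7.02 without CV replicate 2. Of the 43 Klra8 UMIs in T-gated cells, 40 were in the Cd3g+ cells, and 34 of these were in CV replicate 2. With the Cd3g+ cells moved to the NK/ILC1 gate the differences were 7.97 for Klra8 and 8.85 for Klra4.

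The inhibitory Klra9 stood at 558, 1165, 191 and 713 CPM in NK/ILC1 cells and 6.53, 55.2, 82.2 and 82.4 in T-gated cells, in the same order of libraries. It was higher in 4 of 4 libraries, by 3.05 ± 0.28 (adjusted p = 2.54e-24, edgeR), and its values in the classes did not overlap. Without CV replicate 1 the difference was 3.80. Cd3g+ cells held 94 of the 283 Klra9 UMIs in T-gated cells, and with them moved to the NK/ILC1 gate it was 3.34. Klra7 was higher in 3 of 4 libraries, by 2.78 ± 0.39 (adjusted p = 2.15e-10, edgeR). Leaving out 1 library moved it to 1.90 (PV replicate 1), 2.17 (PV replicate 2), 3.50 (CV replicate 1) or 3.68 (CV replicate 2), each past the test. In CV replicate 1 it stood at 14.7 in NK/ILC1 cells and 27.4 in T-gated cells, and DESeq2 did not call it (adjusted p = 0.46).

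Klra5 went the other way. It had no UMI in any of the 51 NK/ILC1 cells, and 204 UMIs in T-gated cells, where it stood at 0.725, 39.6, 54.8 and 68.0 CPM in PV1, PV2, CV1 and CV2. Against a floor of 3 UMIs over the NK/ILC1 cells, it was at least 3.15-fold lower there (adjusted p = 0.00029, edgeR). The call was not made by DESeq2 (adjusted p = 0.85) or without CV replicate 2 (adjusted p = 0.12). With the 45 Cd3g+ cells counted as NK/ILC1 cells the direction turned, to a log2 difference of 3.12, since 113 of the 204 UMIs were in those cells.

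The CD94 group was higher in NK/ILC1 cells by smaller factors. Klrd1 stood at 976 to 1673 CPM in NK/ILC1 cells and 287 to 447 in T-gated cells, a log2 difference of 1.29 ± 0.22 (adjusted p = 2.27e-07, edgeR). Of its 1912 T-gate UMIs, 382 were in Cd3g+ cells, and with those moved the difference was 1.86. Klre1, whose product forms receptors with the KLRI chains, stood at 528 to 1117 against 86.3 to 205, a difference of 1.91 ± 0.24 (adjusted p = 9.42e-13, edgeR). Neither overlapped between the classes, and both were higher in 4 of 4 libraries. Klrc1 was listed at 0 in the NK/ILC1 cells of PV replicate 1 and at 508, 836 and 765 in the other libraries, against 136 to 247 in T-gated cells. Its difference was 1.11 ± 0.26 (adjusted p = 0.00062, edgeR), and the call was lost with DESeq2 (adjusted p = 0.61), without CV replicate 1 (adjusted p = 0.52) and without CV replicate 2 (adjusted p = 0.18).

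The NKR-P1 receptors differed from each other in how far they parted the classes. Klrb1a had 119 to 372 CPM in NK/ILC1 cells and 0 to 18.4 in T-gated cells, a log2 difference of 3.95 ± 0.44 (adjusted p = 1.4e-16, edgeR). Cd3g+ cells held 37 of its 54 T-gate UMIs, and with them moved the difference was 5.40. Klrb1c, the gene of the NK1.1 antigen, had 842 to 1255 against 285 to 372, a difference of 1.23 ± 0.22 (adjusted p = 2.28e-06, edgeR). Both were higher in 4 of 4 libraries without overlap. Klrb1a had a UMI in only 9 of the 746 T-gated cells other than Cd3g+ cells, and Klrb1c in 485 of them.

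**Figure D2:**
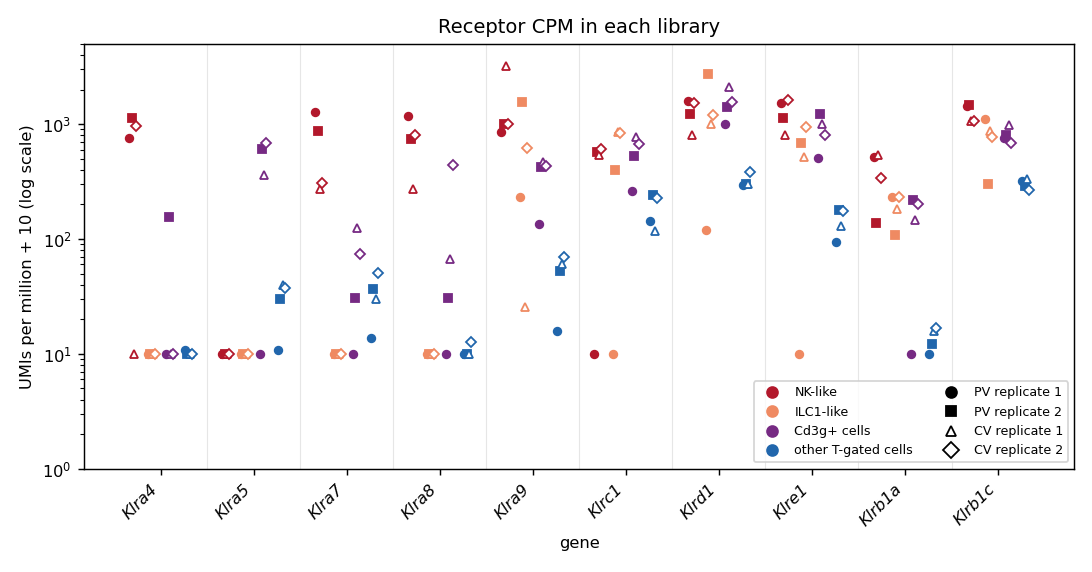
UMIs scaled to CPM, plus 10 (log axis) of each receptor gene in 4 classes of cells (colours), with 1 symbol per library and filled symbols for PV. NK-like cells lie highest for Klra7 in every library and for Klra4 and Klra8 in every library but CV1 for Klra4, where they are at 0, and Cd3g+ cells lie highest for Klra5, at 353 to 675 in 3 libraries.

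Of the other lectins of the NK gene complex, 12 of 22 listed genes were tested between NK/ILC1 and T cells. Of these, 7 rose in NK/ILC1 cells, none fell and 5 did not pass, with a median log2 difference of 1.55. Klrb1b, an inhibitory NKR-P1 receptor, rose by 3.55 ± 0.29 (adjusted p = 2.1e-30, edgeR), Klri2, which encodes a partner of KLRE1, by 3.74 ± 0.39 (adjusted p = 7.6e-19), and Klrk1, the NKG2D gene, by 1.55 ± 0.22 (adjusted p = 2.7e-10). Klrb1f rose by 2.43 ± 0.30 (adjusted p = 1.1e-13) and Klrc2 by 1.55 ± 0.25 (adjusted p = 1.3e-07).

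Signalling genes of the receptors were mixed, with 4 of 18 tested rising, 4 falling and 10 not passing. Fcer1g, an ITAM adaptor, rose by 3.33 ± 0.21 (adjusted p = 5.9e-55, edgeR), Lat2 by 3.02 ± 0.46 (adjusted p = 5.3e-09) and the kinase gene Syk by 3.46 ± 0.92 (adjusted p = 0.0044). The T cell adaptor Lat fell by 2.34 ± 0.38 (adjusted p = 4.4e-08) and Sh2d1a (SAP) fell by 1.80 ± 0.42 (adjusted p = 0.00067). Of 9 other NK receptor genes tested, 3 rose, among them Cd244a (2.36 ± 0.44, adjusted p = 3.4e-06), Fcgr3 (3.41 ± 0.73, adjusted p = 0.00012) and Lag3 (1.90 ± 0.63, adjusted p = 0.046). Slamf6 fell: it had no UMI in any NK/ILC1 sum and 37.7 to 65.8 CPM in T-gated cells (adjusted p = 0.00016). None of the 6 ligand genes tested passed, B2m and Clec2i having the smallest p (adjusted p = 0.12 and 0.72).

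Within the NK/ILC1 gate, Klra4, Klra7 and Klra8 were confined to the NK-like side among the resolved cells. They had UMIs in 9, 9 and 10 of 16 NK-like cells and in 0 of 33 ILC1-like cells, which allows a share of up to 9.09%. The gate held few cells, 3, 4, 2 and 7 NK-like cells and 2, 2, 12 and 17 ILC1-like cells in PV1, PV2, CV1 and CV2. The intended minimum of 5 cells per sum left only CV replicate 2, so sums of at least 2 cells were tested, a limit chosen after the cell numbers were seen.

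Klra4 stood at 755, 1120, 0 and 964 CPM in the NK-like cells of these libraries, Klra7 at 1258, 862, 265 and 299, and Klra8 at 1174, 732, 265 and 798. All 3 were at 0 in the ILC1-like cells of every library. Against a floor of 3 UMIs over the ILC1-like cells, Klra4 was at least 52.2-fold higher in NK-like cells (adjusted p = 0.025, edgeR), Klra7 at least 36.7-fold (adjusted p = 0.033) and Klra8 at least 45.7-fold (adjusted p = 0.025). The background was 5.3% of 321 genes called in either direction, 2.8% higher and 2.49% lower. Since these genes were at 0 in ILC1-like cells, they passed the filter on low counts only through the NK-like cells in which they were high, so the number of members called is not read against that background. Without PV replicate 1, no gene of all those tested was called by edgeR, and Klra4 and Klra8 had adjusted p of 0.11 and 0.15. With stricter cell limits no gene of 447 was called either. Klra7 entered the test on leaving out CV replicate 1 and on no other leave-out, and none of the 3 entered it without CV replicate 2. DESeq2 called Klra7 and Klra8 and not Klra4 (adjusted p = 0.46).

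No other member passed the test on this division. Klra9 had UMIs in 9 of 16 NK-like cells and 10 of 33 ILC1-like cells, and stood at 839, 991, 3180 and 997 CPM in NK-like and 221, 1558, 15.8 and 614 in ILC1-like cells. Its log2 difference of 1.58 ± 1.10 did not pass (adjusted p = 0.54, edgeR), though it did with the Cd3g+ cells added to the gate (1.69, adjusted p = 0.012). Klrd1, Klre1, Klrb1c and Klrc1 had log2 differences of 0.24 ± 0.64, 1.26 ± 0.64, 0.79 ± 0.41 and -0.24 ± 0.46, with adjusted p from 0.39 to 0.92. Their shares of cells with a UMI were 93.8%, 100%, 100% and 50% in NK-like cells and 93.9%, 90.9%, 90.9% and 75.8% in ILC1-like cells. Thinned to 2000 UMIs a cell, Klre1 was in 13 of 13 NK-like cells and 20 of 31 ILC1-like cells (exact 95% intervals 75.3% to 100% and 45.4% to 80.8%), Klrd1 in 13 and 26, Klrb1c in 12 and 27 and Klrc1 in 5 and 19. Klrb1a was not tested, and stood at 503, 129, 530 and 332 CPM in NK-like and 221, 97.4, 174 and 220 in ILC1-like cells, higher in NK-like cells in 4 of 4 libraries. Klra5 had no UMI on either side. Of the other genes fixed in lists, Cd160 fell, at 0 to 86.2 CPM in NK-like cells and 110 to 904 in ILC1-like cells (-4.38 ± 0.87, adjusted p = 0.025), and no other lectin, adaptor or ligand gene tested passed. Those with the smallest p were Klrb1b and Clec2d (adjusted p = 0.51 and 0.73), Fcer1g and Hcst (adjusted p = 0.60 and 0.90), and B2m and H2-K1 (adjusted p = 0.16 and 0.48).

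Single NK-like cells carried their Ly49 transcripts in assortments. Of 16 cells, 12 had UMIs of 2 or more Ly49 members (75.0%, exact 95% interval 47.6% to 92.7%, counting error only), 3 had UMIs of 1 and 1 had none. Of the 12, 5 cells had 2 members, 4 had 3 and 3 had 4. With every cell thinned to 2000 UMIs, and 3 shallower cells left out, 7 of 13 cells still had 2 or more (53.8%, 25.1% to 80.8%).

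The combinations were varied. Klra4, Klra7, Klra8 and Klra9 were together in 3 cells, Klra4, Klra7 and Klra8 in 2, Klra7 and Klra8 in 2, and 5 other sets of more than 1 gene were each seen in 1 cell. Klra9 was the only Ly49 member in 3 cells, with 18, 12 and 10 UMIs. Each NK-like cell with a single Ly49 member had Klra9. The deepest NK-like cell, with 9123 UMIs, had no Ly49 UMI at all and 12 of Klrc1 and 16 of Klrd1.

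**Figure D3:**
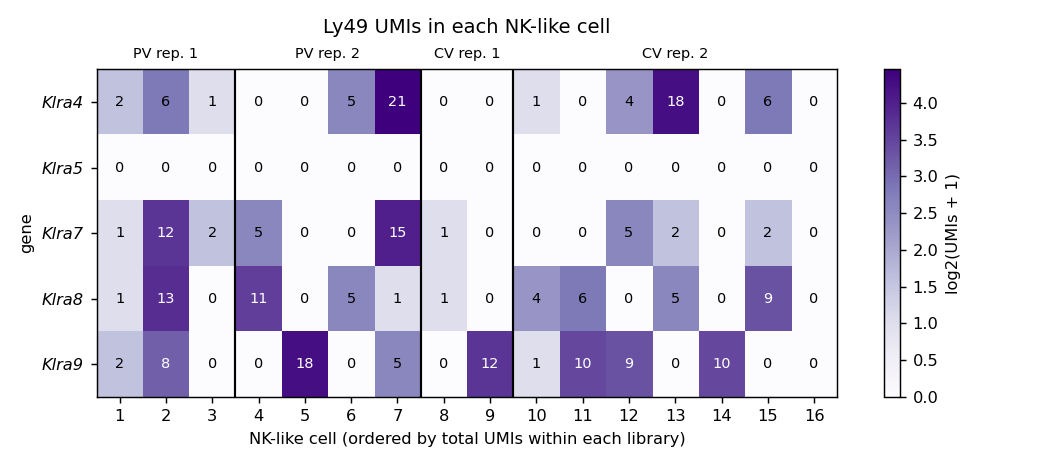
UMIs of the 5 Ly49 genes (rows) in each of the 16 NK-like cells (columns, ordered by total UMIs within a library), with colour on a log2(UMIs + 1) scale. Cells range from none to 4 Ly49 genes with a UMI, Klra5 is at 0 in all, and single cells reach 21 UMIs of Klra4 and 18 of Klra9.

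Some pairs were met more often than others in these 16 cells, as a description with no test. Klra8 had a UMI in 7 of 9 cells with Klra4 and in 3 of 7 without it, and Klra7 in 7 of 9 and 2 of 7. Klra9 was met in 5 of 9 cells with Klra4 and 4 of 7 without it. Against Klrc1, the NKG2A gene, Klra4 had a UMI in 2 of 8 Klrc1-positive cells and in 7 of 8 Klrc1-negative cells, which had median depths of 4301 and 4386 UMIs. The exact 95% intervals of these shares, 3.19% to 65.1% and 47.3% to 99.7%, overlap. After thinning the counts were 1 of 5 and 5 of 8. The 3 NK-like cells of PV replicate 1 all had Klra4 and no Klrc1 UMI, so this contrast is mixed with library.

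The 250 bases before the annotated starts of the activating genes Klra4 and Klra8 are shown. Their promoters were closer to each other (86.6% of aligned bases identical over 300 bases from RefSeq) than their coding sequences were. The longest stretch that both hold exactly, 27 bases, is in capitals.
Klra4 (GRCm38.p6, chr6:130067272-130067521, minus strand): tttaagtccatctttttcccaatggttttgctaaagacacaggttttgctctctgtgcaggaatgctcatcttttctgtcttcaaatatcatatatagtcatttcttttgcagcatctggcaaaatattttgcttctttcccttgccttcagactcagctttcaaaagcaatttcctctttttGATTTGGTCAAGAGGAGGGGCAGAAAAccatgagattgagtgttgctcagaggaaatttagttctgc
Klra8 (GRCm38.p6, chr6:130129899-130130148, minus strand): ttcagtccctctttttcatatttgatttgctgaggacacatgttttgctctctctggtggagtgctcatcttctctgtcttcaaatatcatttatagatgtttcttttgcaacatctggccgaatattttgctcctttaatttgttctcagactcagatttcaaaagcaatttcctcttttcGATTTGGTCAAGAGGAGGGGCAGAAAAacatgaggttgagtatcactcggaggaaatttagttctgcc
The shared stretch ends 41 bases before the start of Klra4 and 42 before that of Klra8. The promoter of Klra5 was closest to that of Klra9, at 89.0% of aligned bases. Klra7, met in as many Klra4-positive NK-like cells as Klra8, gave no promoter alignment long enough to compare. Whether likeness of promoters goes with detection in the same cells was not tested. No binding or chromatin data bear on these sequences here.

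ILC1-like cells showed no such assortment. Of 33, 10 had a UMI of Klra9, 23 of no Ly49 member, and none of 2 or more, which allows up to 9.09%. The Cd3g+ cells lay between, with 25 of 45 cells having UMIs of exactly 1 Ly49 member and 10 of 2 or more. Thinned to 2000 UMIs, 4 of 44 Cd3g+ cells had 2 or more.

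**Figure D4:**
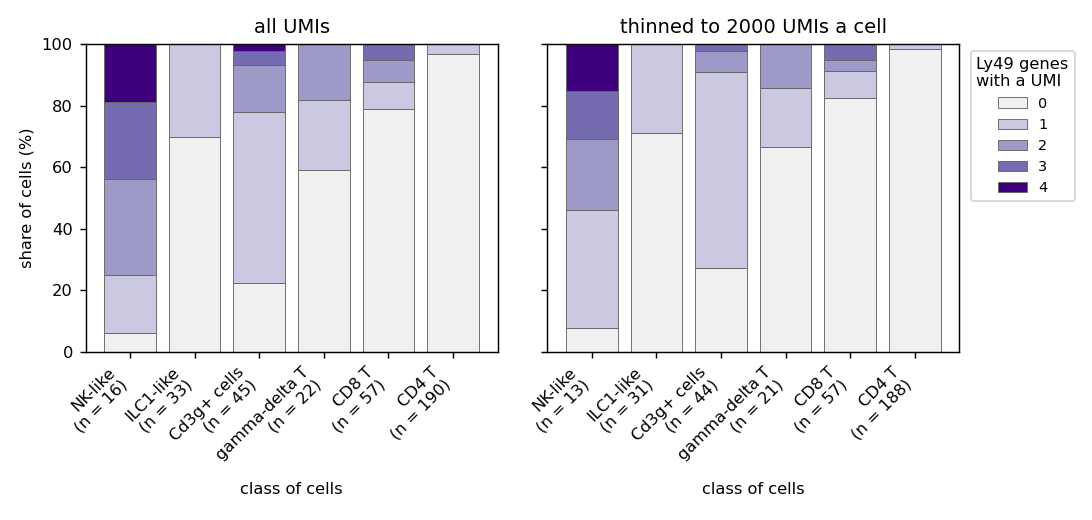
Share of cells (stacked bars, percent) with UMIs of 0 to 4 of the 5 Ly49 genes in 6 classes, with all UMIs (left) and thinned to 2000 UMIs a cell (right). NK-like cells are the class with most cells at 2 or more genes, 75.0% with all UMIs and 53.8% after thinning, and ILC1-like cells have none.

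Klra5, the gene of Ly49E, had UMIs in Cd3g+ cells and in some T and myeloid cells. It had a UMI in 16 of 45 Cd3g+ cells, with 0, 4, 3 and 9 positive cells in PV1, PV2, CV1 and CV2, and 0, 602, 353 and 675 CPM. PV replicate 1 held only 2 Cd3g+ cells. Among other T-gated cells, Klra5 had UMIs in 5 of 22 gamma-delta T cells (Trdc present and Trac absent), 5 of 57 CD8 T cells, 3 of 477 with neither or both co-receptors, and 0 of 190 CD4 T cells, which allows up to 1.58%. The exact 95% intervals for gamma-delta (7.82% to 45.4%) and CD8 T cells (2.91% to 19.3%) overlap. Cd3g+ cells had to lack Trdc, so cells like them with a Trdc UMI would be counted in the gamma-delta class. Klrb1a had a UMI in 5 of 22 cells of that class and in 3 of 477 with neither or both co-receptors. How many cells of that class are gamma-delta T cells was not tested.

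Within the Cd3g+ cells, Klra5 and Klra9 were mostly in different cells. Klra9 had a UMI in 3 of 16 Klra5-positive cells and in 18 of 29 Klra5-negative cells. The exact 95% intervals, 4.05% to 45.6% and 42.3% to 79.3% for counting error, overlap. Median depths were 5530.5 and 4765 UMIs. Klra8 was in 0 of the 16 and 6 of the 29, and each of those 6 cells also had Klra9, with which Klra8 shares 3′ sequence. Klrc1 had UMIs in 14 of 16 Klra5-positive cells and in 10 of 21 Klra9-positive against 23 of 24 Klra9-negative cells. Klrd1, Klre1 and Klrb1c were in 15, 14 and 14 of the 16 Klra5-positive cells. Outside the Cd3g+ cells this separation was not seen. Of the other T-gated cells with Klra5, 4 had no other Ly49 member, 5 also had Klra9, and 4 had Klra7 and Klra9.

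In the other 746 T-gated cells, 56 had a UMI of any Ly49 member (7.51%), and 17 of 2 or more. Klra9 was in 41 cells, Klra7 in 20, Klra5 in 13, Klra8 in 2 and Klra4 in 1, so that 54 of the 56 had an inhibitory member. By subset, 9 of 22 gamma-delta, 12 of 57 CD8, 6 of 190 CD4 and 29 of 477 remaining T cells had a Ly49 UMI. Klra7 was in 7 of 57 CD8 T cells and 1 of 190 CD4 T cells, and Klra9 in 10 and 4. The CD8 cells came unevenly, with 9, 19, 4 and 25 in PV1, PV2, CV1 and CV2, and those with Ly49 UMIs were 2, 5, 0 and 5.

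The adaptor gene Tyrobp accompanied Ly49 transcripts in part of the T cells. It had a UMI in 9 of 9 gamma-delta T cells with Klra5, Klra7 or Klra9, and in 1 of the 13 with no Ly49 member. Over the 746 T-gated cells it was in 10 of 13 with Klra5, 15 of 41 with Klra9, 8 of 20 with Klra7 and 65 of 690 with none. All Cd3g+ and NK/ILC1 cells have Tyrobp by their definition, and the gamma-delta class can hold cells like them. The gamma-delta cells with Ly49 UMIs were 0 of 6, 1 of 4, 5 of 6 and 3 of 6 in PV1, PV2, CV1 and CV2.

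CD94 and NKG2A genes were common among T cells. Klrd1 had a UMI in 374 of the 746 T-gated cells (50.1%), Klrc1 in 195 (26.1%) and Klre1 in 160 (21.4%). They went together: Klrd1 was in 161 of 195 Klrc1-positive cells and 213 of 551 Klrc1-negative cells, and after thinning to 2000 UMIs in 82 of 141 and 146 of 586. Klre1 was in 146 of 374 Klrd1-positive and 14 of 372 Klrd1-negative cells, and after thinning in 79 of 228 and 32 of 499. Klrd1 was the most widely found of the 3 in each subset, at 18 of 22 gamma-delta, 36 of 57 CD8 and 81 of 190 CD4 T cells.

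Klrb1c set the T cell subsets apart in another order. It had a UMI in 116 of 190 CD4 T cells (61.1%) and in 346 of 477 with neither or both co-receptors (72.5%), but in 9 of 57 CD8 T cells (15.8%). The exact 95% intervals were 53.7% to 68.0% for CD4 and 7.48% to 27.9% for CD8 T cells. Median depths were 6545.5 and 6374 UMIs.

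T cells with a UMI of Cxcr6, a chemokine receptor of liver-resident lymphocytes, were compared with T cells without one in the same 4 libraries. In summed UMIs, Klrb1c and Klra5 were higher in the 663 Cxcr6+ than in the 128 Cxcr6- cells, and the other 6 members tested did not pass. The background was 3.44% of 6953 genes called, 1.44% higher and 2% lower, and the median log2 difference was -0.18 over the members and 0.02 over all genes. Klra4 and Klra8 had too few UMIs to be tested. Klra5, with 8 UMIs in Cxcr6- T cells, passed the filter on low counts only through the Cxcr6+ cells in which it was high. The number of members called is therefore not read against that background.

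Klrb1c stood at 339, 337, 384 and 307 CPM in the Cxcr6+ T cells of PV1, PV2, CV1 and CV2, and at 45.7, 44.2, 289 and 205 in the Cxcr6- T cells. It was higher in 4 of 4 libraries, by 1.19 ± 0.29 on the log2 scale (adjusted p = 0.023, edgeR), and more so in the PV libraries, a difference not tested. The call was lost with DESeq2 (adjusted p = 0.36), without PV replicate 1 (0.91, adjusted p = 0.082) and without PV replicate 2 (0.80, adjusted p = 0.23). By cells, 464 of 631 Cxcr6+ and 21 of 115 Cxcr6- T cells, Cd3g+ cells left out, had a Klrb1c UMI.

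Klra5 stood at 0.788, 46.3, 61.7 and 79.8 in Cxcr6+ and 0, 0, 7.06 and 25.6 in Cxcr6- T cells, a log2 difference of 2.25 ± 0.51 (adjusted p = 0.013, edgeR). It was not called with DESeq2 (adjusted p = 0.12), with shared barcodes kept (0.94, adjusted p = 0.48) or without PV replicate 2 (adjusted p = 0.092), and turned to -0.32 when 2 Cxcr6 UMIs were asked for. Of the 196 Klra5 UMIs in Cxcr6+ T cells, 90 were outside the Cd3g+ cells, and with those cells left out of the T gate the difference was 3.74 (adjusted p = 0.019). Without CV replicate 2 it was 3.98 (adjusted p = 0.017). Klra9, at 7.09, 55.4, 62.7 and 72.7 against 0, 54.0, 219 and 117, had a difference of -0.96 ± 0.31 that did not pass (adjusted p = 0.10, edgeR). It passed with shared barcodes kept (-0.96, adjusted p = 0.031) and without PV replicate 1 (-1.04, adjusted p = 0.043). Of the 74 Klra9 UMIs in Cxcr6- T cells, 37 were outside the Cd3g+ cells, and with those left out the difference was -0.56 (adjusted p = 0.48). Of Klra8, 32 UMIs lay in 2 Cxcr6- cells of CV replicate 2, both of them Cd3g+ cells. Klra7, Klrc1, Klrd1, Klre1 and Klrb1a had differences from -0.72 to 0.38, with adjusted p from 0.61 to 0.92.

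Among the listed genes, the NK receptor genes Cd226 (1.53 ± 0.19, adjusted p = 3.1e-05, edgeR) and Slamf7 (1.13 ± 0.28, adjusted p = 0.025) rose in Cxcr6+ T cells and Slamf6 fell by 2.52 ± 0.27 (adjusted p = 3.2e-06), with 4 of 7 tested not passing. Cd247, the CD3 zeta chain gene, fell by 0.91 ± 0.23 (adjusted p = 0.027), the only 1 of 15 adaptor and signalling genes tested to pass. None of 10 other lectins and none of 6 ligand genes passed. Klrc2 and Cd69 (adjusted p = 0.19 and 0.22) and B2m and H2-D1 (adjusted p = 0.22 and 0.34) had the smallest p.

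Between the zones, no member passed in NK/ILC1 cells and none in T cells. In NK/ILC1 cells edgeR called 0 of 747 genes (0% background, 58 genes with an unadjusted p under 0.05), and DESeq2 called 2. In T cells edgeR called 0 of 8158 genes (0%, 261 with an unadjusted p under 0.05), and DESeq2 called 2. The NK/ILC1 sums were made of 6 cells in each PV library, 15 in CV1 and 24 in CV2.

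In NK/ILC1 cells, the Ly49 genes of NK-like cells stood higher in PV. Klra7 read 697 and 597 CPM in PV and 14.7 and 77.3 in CV, a log2 difference of 3.48 ± 0.53 (adjusted p = 0.12, edgeR). Its adjusted p was 0.013 with DESeq2. Leaving out 1 of the 4 libraries gave log2 differences of 2.96 to 5.03, where the zone left with 1 library is assumed to vary like the other. Klra4 (418 and 777 against 0 and 249) and Klra8 (651 and 508 against 14.7 and 206) had differences of 2.02 ± 0.85 and 2.08 ± 0.69 (adjusted p = 0.60 and 0.44, edgeR). Leaving out 1 library in the same way, the difference ran from 1.23 to 7.57 for Klra4 and from 1.41 to 4.87 for Klra8.

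Klrc1 stood lower in PV, at 0 and 508 against 836 and 765, a difference of -1.51 ± 0.73 (adjusted p = 0.67, edgeR). Without PV replicate 2 it was -8.78, with 1 PV library left. Klra9, Klrd1, Klre1, Klrb1a and Klrb1c had differences from -0.16 to 0.85, with adjusted p from 0.83 to 0.99. PV and CV libraries did not overlap for 4 of 9 members higher in PV (Klra4, Klra7, Klra8 and Klrb1c) and for 1 higher in CV (Klrc1), against 22.1% and 17% of all genes tested.

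The make-up of the gate moved with the zone. NK-like cells were 3 of 6, 4 of 6, 2 of 15 and 7 of 24 cells in PV1, PV2, CV1 and CV2, and its part in the zone differences was not tested. Within NK-like cells alone, Klra7 stood at 1258 and 862 CPM in PV and 265 and 299 in CV, from 3, 4, 2 and 7 cells. Its UMIs per cell were 1, 12 and 2 in PV1, and 5, 0, 0 and 15 in PV2. In CV1 they were 1 and 0, and in CV2 0, 0, 5, 2, 0, 2 and 0. Single cells thus held much of these sums, and the CV1 value was 1 UMI. Klra4 (755 and 1120 against 0 and 964) and Klra8 (1174 and 732 against 265 and 798) overlapped between zones. The 6 T cell check markers summed to 325 and 1016 CPM in the PV and 1583 and 1271 in the CV NK/ILC1 cells, and their part was not tested either. Markers of Kupffer and other myeloid cells summed to 0 to 58.6 CPM in NK/ILC1 cells, and those of sinusoidal endothelium to 0 in all 4 libraries.

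In T-gated cells the members stood lower in PV, 8 of 8 tested, with a median log2 difference of -0.88 beside 0.00 over all genes. Klrd1 read 287 and 330 CPM in PV and 434 and 447 in CV (-0.54 ± 0.15, adjusted p = 0.998, edgeR, as for every member). Klra9 read 6.53 and 55.2 against 82.2 and 82.4 (-1.42 ± 0.52), Klra5 0.725 and 39.6 against 54.8 and 68.0 (-1.61 ± 0.67), and Klra7 3.63 and 26.2 against 27.4 and 41.6 (-1.23 ± 0.54). Klrb1a had 0 and 9.20 against 15.9 and 18.4 (-1.89 ± 0.72). These 5 did not overlap between zones, against 13% of all genes being higher in both CV libraries. Klrc1, Klre1 and Klrb1c overlapped. Whether the zone difference itself differs between NK/ILC1 and T cells was not tested.

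The low PV values were those of PV replicate 1 in particular. Without PV replicate 2, PV replicate 1 stood alone for its zone. The log2 differences were then -6.26 for Klra5, -3.26 for Klra7, -3.68 for Klra9, -1.22 for Klre1 and -7.45 for Klrb1a. The T gate held 2 (PV1), 9 (PV2), 18 (CV1) and 16 (CV2) Cd3g+ cells. With those cells moved out of the gate the differences were -0.26 for Klrd1, -1.23 for Klra9, -1.50 for Klra5 and -1.06 for Klra7, and Klrb1a could not be tested.

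**Figure D5:**
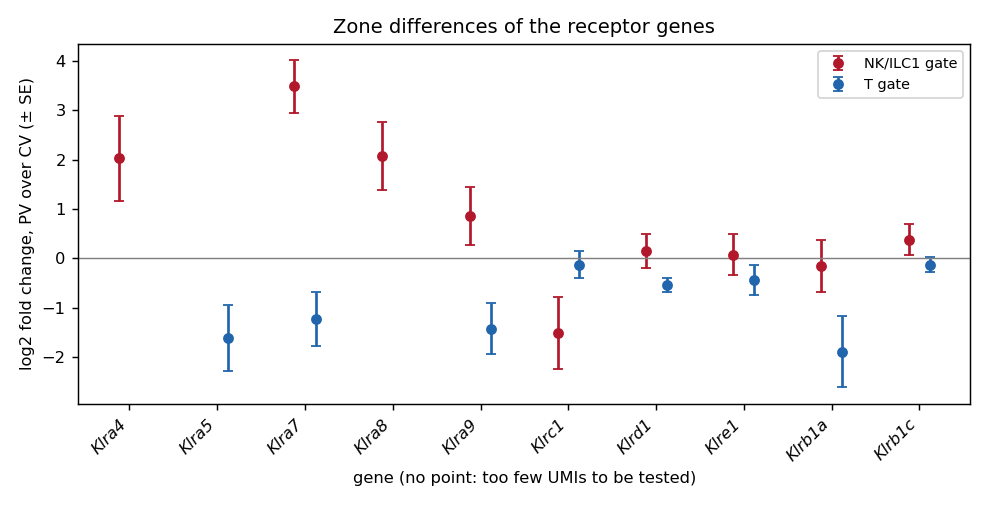
Log2 fold change of PV over CV (points, with SE as bars, 2 libraries per zone) for each receptor gene in the NK/ILC1 gate and the T gate. No point passes the test, and the Ly49 genes tested lie above 0 in NK/ILC1 cells and below 0 in T-gated cells.

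No listed gene passed between zones in either class. In NK/ILC1 cells the smallest p of each list were those of Klri2 (1.26 ± 0.39) and Klrc2, Hcst and Fcer1g, B2m and H2-T23, and Cd160 (-2.11 ± 0.53) and Cd226, with adjusted p from 0.30 to 0.98. In T cells they were those of Klri2 (-1.99 ± 0.58) and Klrb1b, Fcer1g (-1.64 ± 0.38) and Lat2, Clec2i and B2m, and Cd160 and Cd244a, with adjusted p from 0.91 to 0.998.

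Among the 490 myeloid cells, Klrd1 had a UMI in 84 (17.1%), Klrc1 and Klre1 in 15 each, Klra5 in 7 and Klrb1c in 6. Klrd1 was in 30 of 34 myeloid cells with a Cd209a UMI, a gene of type 2 conventional dendritic cells, where it stood at 505 CPM. It was in 42 of 154 with an Xcr1 or Clec9a UMI, genes of type 1 conventional dendritic cells, in 6 of 12 with a Siglech UMI, a gene of plasmacytoid dendritic cells, and in 6 of the remaining 290, of which 11 had Klrc1. These subsets were chosen after the values were seen. In the Cd209a-positive cells Klrd1 was found in 7 of 9, 18 of 19, 2 of 2 and 3 of 4 cells of PV1, PV2, CV1 and CV2. Its partner Klrc1 had a UMI in 1 of those 34 cells and Klre1 in 5. Median depths were 12367 UMIs in the Cd209a-positive and 16178.5 in the Xcr1- or Clec9a-positive cells.

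Klra5 was also found in 7 of the 154 Xcr1- or Clec9a-positive myeloid cells, in all 4 libraries, with 10 UMIs in all, and in none of the 34 Cd209a-positive, 12 Siglech-positive and 290 remaining myeloid cells. For the last this allows a share of up to 1.03%. Their median depth was 4536 UMIs against 16178.5 in the Xcr1- or Clec9a-positive cells, and after thinning to 2000 UMIs Klra5 was in 0 of 446 myeloid cells, so it was not detectable in them at that depth. The other Ly49 members had 1 UMI of Klra4 and 4 of Klra9 over all 490. Of the lectins that are not members, Klra2 had a UMI in 198 of 490 myeloid cells and Klra17 in 42, and neither had one in NK/ILC1 cells.

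The genes whose levels followed the receptors most closely were sought over 24 sums of 6 classes in 4 libraries, among 5645 genes, on a log2(CPM + 10) scale. For the summed Ly49 genes they were Prf1 (Pearson r = 0.907), Arl6ip5 (0.882), Ugcg (0.855), Spry2 (0.854) and Gzma (0.852). For the sum of Klrc1, Klrd1 and Klre1 they were Ccl5 (r = 0.967), Klrk1 (0.942), Nkg7 (0.925), AW112010 (0.919) and Hcst (0.915). The sums share libraries and differ in depth, and Nkg7 is a gene of the NK/ILC1 gate, so these values are a description.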

How the data were processed

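Matrices of UMI counts per gene and barcode, raw as the authors deposited them, were read for 2 PV and 2 CV libraries of liver CD45+ cells. Cell Ranger 4.0.0 and mm10 are named in the submitters' processing notes. Of 32285 Ensembl IDs, 32158 had a symbol. Barcodes with at least 200 genes and at most 10% mitochondrial UMIs were kept, each only in the library holding at least 70% of its UMIs. Scanpy 1.11.5 (scrublet) called 12 doublets, which were left out only in an alternative. Cells were gated on marker UMIs: T cells had at least 2 UMIs of Cd3d, Cd3e and Cd3g, and NK/ILC1 cells at most 1, at least 3 of Ncr1, Eomes, Tbx21, Nkg7 and Il2rb, and Tyrobp. UMIs were summed per library and class and tested with edgeR 4.0.16 (quasi-likelihood, TMM, filterByExpr, threshold 0.05, R 4.3.3). The script was tested on simulated data. CPM are UMI counts of a gene scaled to the total of its sum. DESeq2 1.42.0, other scalings, filters, gates and left-out libraries were alternatives. NK-like and ILC1-like sums needed at least 2 cells, not the intended 5. Intervals are exact binomial (Clopper-Pearson, 95%) and, like limits from a count of 0 (3 counts of the total), cover counting error only. The members and gene lists were chosen with earlier results of these data known. Named genes were the members and, from each list, up to 5 past the test with the smallest p, or else the 2 with the smallest p; Cd3g+ cells and myeloid subsets were added later. Replicates of a zone differed by more than sampling noise (chi-square per degree of freedom 19.0 in PV and 11.5 in CV).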

Additional observations from a re-analysis of the deposited data

Results flagged for a closer look

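The change of Klra9 and Klrd1 between Cxcr6+ and Cxcr6- T cells ran one way in both PV libraries and the other way in both CV libraries. The log2 ratio of CPM plus 10, Cxcr6+ over Cxcr6-, was 0.77 and 0.030 for Klra9 in PV replicates 1 and 2, and -1.65 and -0.62 in CV replicates 1 and 2. For Klrd1 it was 0.020 and 1.50 in PV and -1.07 and -0.29 in CV. The difference between the zones was not tested, and 2 of the PV values lie close to 0.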

How the results depend on the processing

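The share of NK-like cells with 2 or more Ly49 members was 53.8% to 78.6% in the alternative runs. Each value lay within the interval of counting error. That interval is wide, 47.6% to 92.7%, and the alternatives largely reuse the same cells, so this is a weak check. The number of genes called by edgeR moved more. For NK/ILC1 against T cells it was 407, and 254 with DESeq2, 764 with the Cd3g+ cells moved to the NK/ILC1 gate, and 254 to 396 without 1 library. For NK-like against ILC1-like cells it was 17, and 8 with no filter, 0 with stricter cell limits, 44 with the Cd3g+ cells moved, 7 with no library block and 0 to 23 without 1 library. For Cxcr6+ against Cxcr6- T cells it was 239, and 159 with DESeq2, 362 with the Cd3g+ cells moved and 104 to 331 without 1 library. Between zones in NK/ILC1 cells it was 0, and 2 with DESeq2, 14 with no filter, 11 with stricter limits and 7 to 32 without 1 library. Between zones in T cells it was 0, and 2 with DESeq2 and 3 to 71 without 1 library. With the replicate number as a block the zone counts were 7 in NK/ILC1 cells, where Klra7 (3.52) was called, and 0 in T cells. Same-numbered libraries deviated with correlations of -0.0038 and 0.111, and the labels give no pairing. Some log2 differences turned direction, most of them small, and the cause was not tested. Against T cells, Klra5 turned to 3.12 with the Cd3g+ cells moved. Between NK-like and ILC1-like cells, Klrd1 turned to -0.40 with stricter limits, -0.14 with the Cd3g+ cells moved and ran from -0.33 to 0.84 without 1 library. Between Cxcr6+ and Cxcr6- T cells, Klra5 turned to -0.32 with 2 Cxcr6 UMIs asked for and Klra7 to 0.34 with DESeq2, while with the Cd3g+ cells moved Klrd1 turned to 0.039 and Klre1 to 0.048. Without 1 library, Klra7 ran from -0.61 to 1.70, Klrc1 from -0.10 to 0.67 and Klrd1 from -0.61 to 0.18. Between zones in NK/ILC1 cells, Klrd1 turned to -0.12 and Klre1 to -0.23 with no filter, and Klrd1 to -0.27 with the Cd3g+ cells moved. Without 1 library, Klrd1 ran from -0.33 to 0.42, Klre1 from -0.34 to 0.62 and Klrb1a from -1.08 to 0.57. Between zones in T cells, Klrc1 turned to 0.12 with the Cd3g+ cells moved, and without 1 library Klrc1 ran from -0.63 to 0.25, Klre1 from -1.22 to 0.059 and Klrb1c from -0.30 to 0.057. With 16 NK-like cells, depth and cell number limit every statement on them.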
